A study of Homo sapiens with 16 samples.

Results

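The 10 genes described here control the passage of a cell from G1 into S phase: the D cyclins CCND1 and CCND3, the E cyclins CCNE1 and CCNE2, the cyclin-dependent kinase (CDK) inhibitors CDKN1A (p21), CDKN1B (p27) and CDKN2C (p18), the transcription factor E2F1, the retinoblastoma gene RB1, and SKP2. They were taken by name from a table of 60642 gene symbols, and all 10 were among the 16636 genes with at least 1 TPM (a transcript level corrected for gene length and library total) in at least 2 libraries. RNA was sequenced from LNCaP, an established human prostate cancer cell line that depends on androgen for growth and carries a mutated androgen receptor. All cells were grown for 72 h with 5% fetal bovine serum and then for 48 h with 5% charcoal-stripped serum, which is low in androgen, before 48 h of treatment. Cells in VEH received the solvents ethanol and DMSO alone, and cells in DHT received 10 nM dihydrotestosterone, an androgen. The groups BIC.VEH, ENZ.VEH and APA.VEH received 10 µM bicalutamide, enzalutamide or apalutamide without DHT, and BIC.DHT, ENZ.DHT and APA.DHT received the same antagonists together with 10 nM DHT. Each of the 8 groups had 2 biological replicates, giving 16 libraries from 1 cell line.

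In G1, the D cyclins activate CDK4 and CDK6, and the E cyclins activate CDK2. These kinases phosphorylate the RB1 protein, which then releases E2F1 and its relatives to transcribe genes for DNA replication, including E2F1 itself and the E cyclins. CDKN2C binds CDK4 and CDK6, CDKN1A (a classic p53 target) and CDKN1B restrain the CDK2 complexes, and SKP2 is the substrate receptor of a ubiquitin ligase that marks CDKN1B for breakdown. Much of this control acts on protein, by phosphorylation and degradation, and was not measured here.

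E2F1 had the largest log2 change of the 10 genes in each of the 4 main comparisons below. The 250 bases before its annotated start in RefSeq (GRCh38.p14, chr20:33686386-33686635, minus strand) are printed for that reason, and because E2F proteins are known to bind the promoters of replication genes and of E2F1 itself. The capitals mark the match to an E2F motif, which begins at base 231.

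E2F1 upstream: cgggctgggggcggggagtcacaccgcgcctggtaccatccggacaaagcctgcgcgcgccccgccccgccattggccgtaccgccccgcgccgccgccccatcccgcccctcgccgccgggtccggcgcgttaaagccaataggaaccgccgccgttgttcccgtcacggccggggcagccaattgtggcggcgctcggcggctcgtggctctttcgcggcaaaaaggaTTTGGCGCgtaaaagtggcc

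The search covered 5 spellings of the motif (TTTGGCGC, TTTCCCGC, TTTGGCGG, TTTCGCGC and TTTCCCGG) on both strands of windows from 250 bases before to 50 bases after each start. A match was present in 1674 of 35116 windows over all genes (4.77%). Among the 10 genes, 8 had a window, with 12 windows between them, and 1 of the 12, that of E2F1, held a match. The RB1 window lay at a start inside the gene. A match describes the letters in the window and is not evidence of binding.

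The treatment check and the libraries are given first because they bear on every value below. The androgen target genes KLK2, KLK3, TMPRSS2 and FKBP5 rose with DHT, by 6.57, 6.42, 3.15 and 2.68 on the log2 scale. Summed, these 4 genes were 116 and 72.2 TPM in VEH and 5107 and 3279 TPM in DHT. They summed to 1015 and 590 TPM in BIC.DHT, 388 and 181 in ENZ.DHT and 430 and 141 in APA.DHT. Without DHT the sums were 476 and 304 TPM in BIC.VEH, 138 and 131 in ENZ.VEH and 72.25 and 59.95 in APA.VEH. The 6 luminal prostate markers summed to between 2287 and 7255 TPM, the 4 basal markers to between 4.58 and 9.24 TPM and the 5 stromal markers to between 11.5 and 32.9 TPM. The basal sum was mostly ITGA6 (4.17 to 9.17 TPM), with KRT14 reaching 1.68 TPM with DHT, and the stromal sum nearly all COL1A1 (11.4 to 32.6 TPM). COL1A2, DCN, PDGFRA and TP63 were below 0.1 TPM in every library. Mitochondrial transcripts made up 22.3% of TPM in DHT replicate 1 and 14.7% in DHT replicate 2, the highest and lowest shares of the 16 libraries. Correlation between the replicates of a group, over genes on the log2 scale, ran from 0.974 to 0.982 in 6 groups, and was 0.964 in both ENZ.DHT and APA.DHT. In those groups replicate 1 had lower values for genes with long transcripts (Spearman rho of length with replicate 1 minus replicate 2 of -0.381 and -0.400, against -0.098 to 0.038 elsewhere, over 13979 genes). The part of transcript length in the results below was not tested beyond the values without these libraries and with the length trend removed.

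The genes differed widely in level, and TPM allows them to be set side by side. Over the 16 libraries CDKN1A was the most abundant, between 187.5 and 898 TPM, followed by CCND1 (59.6 to 128), CCND3 (31.6 to 47.0) and CDKN1B (26.0 to 35.2). RB1 lay between 9.94 and 20.9 TPM, and CDKN2C, E2F1, CCNE2, SKP2 and CCNE1 reached 14.7, 31.7, 22.0, 14.3 and 12.4 TPM at their highest. CCND2, the third D cyclin, was below 0.1 TPM in every library, and CDK6 lay between 0.21 and 0.54 TPM against 112 to 217 TPM for CDK4. Of the D cyclin kinase pairs measured, transcripts of CCND1, CCND3 and CDK4 were thus the abundant ones, in every group.

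**Figure D1:**
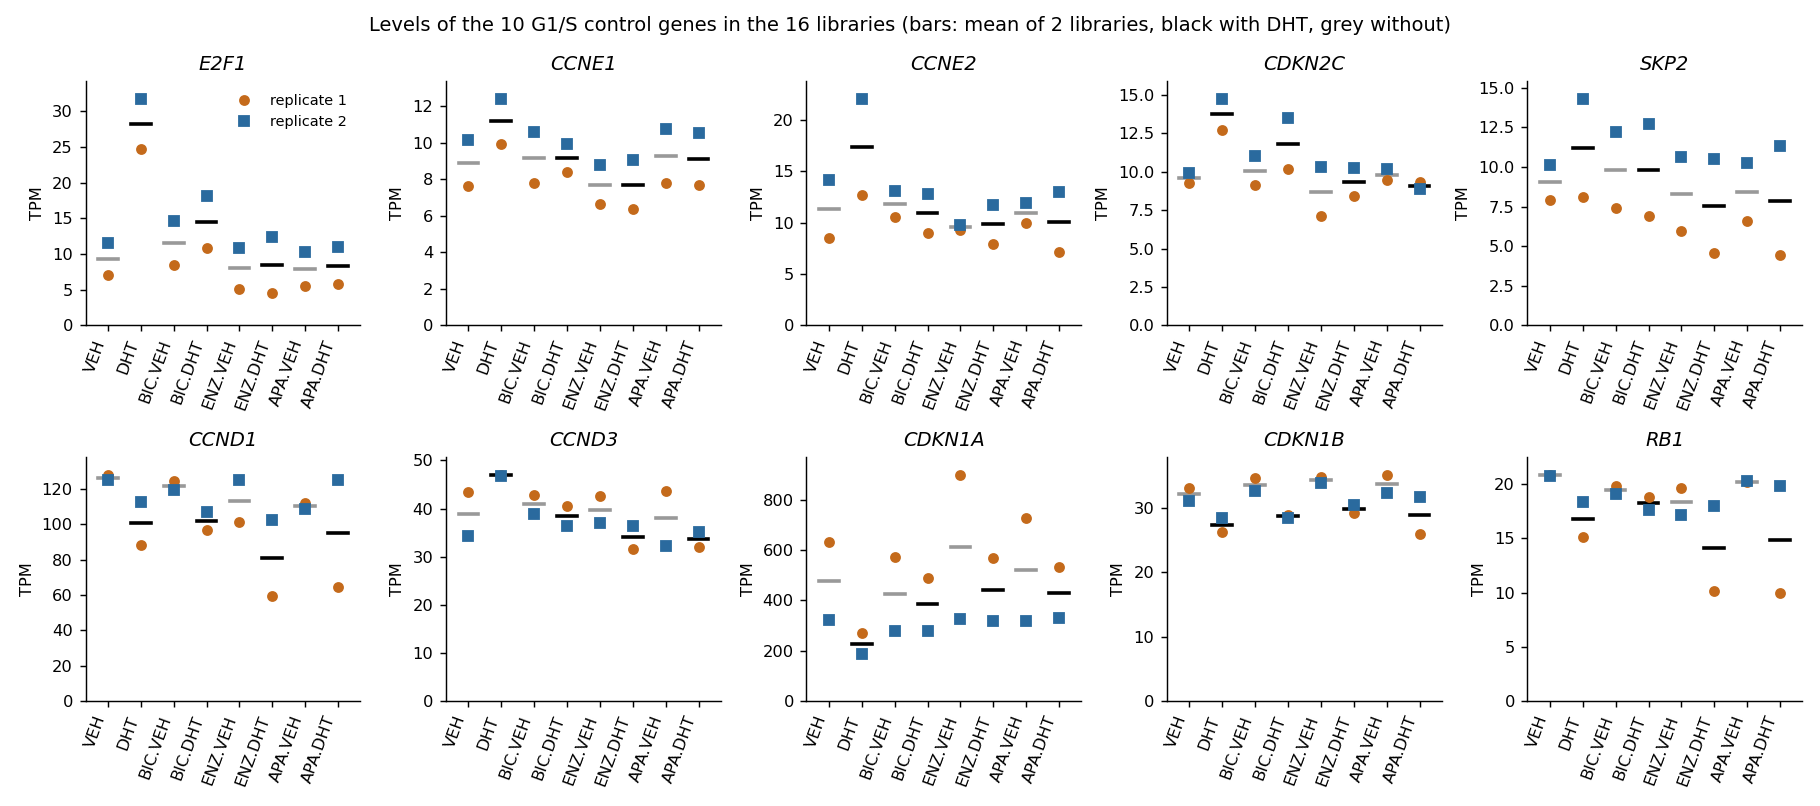
TPM of each of the 10 genes (vertical axes, from 0, each on its own scale) in the 8 treatment groups, with replicate 1 as circles, replicate 2 as squares and the mean of the 2 libraries as a bar. E2F1 stood highest and CDKN1A lowest in DHT in both replicates, while replicate 2 lay above replicate 1 for E2F1, CCNE1, CCNE2 and SKP2 in all 8 groups and below it for CDKN1A.

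The plot of levels by group showed that replicate number mattered for these genes as well as treatment. Over the 8 groups, E2F1 was higher in replicate 2 by 0.78 (SE 0.09) on the log2 scale, SKP2 by 0.76 (SE 0.09), CCNE2 by 0.47 (SE 0.09), CCNE1 by 0.36 (SE 0.05) and CDKN2C by 0.21 (SE 0.07). CDKN1A was lower in replicate 2 by 0.94 on the log2 scale (SE 0.09). These 6 of the 10 genes passed the test of the replicate term (adjusted p-values from 3.08e-05 to 0.026, limma), against 40.2% of all genes tested. CCND1, CCND3, CDKN1B and RB1 did not pass it. Of the 30 E2F target genes listed, which encode replication proteins such as the MCM helicase, PCNA and the enzymes of nucleotide synthesis, all 30 had higher estimates in replicate 2 and 28 were called. In the bulk RNA, a larger share of cycling cells in replicate 2 and more of these transcripts per cell cannot be told apart. The same limit holds for the changes with DHT and with the antagonists below. Without the ENZ.DHT and APA.DHT groups the E2F1, CDKN1A and CCNE1 differences were 0.69, -0.995 and 0.34, and CCND3 was also called, lower by -0.21.

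**Figure D2:**
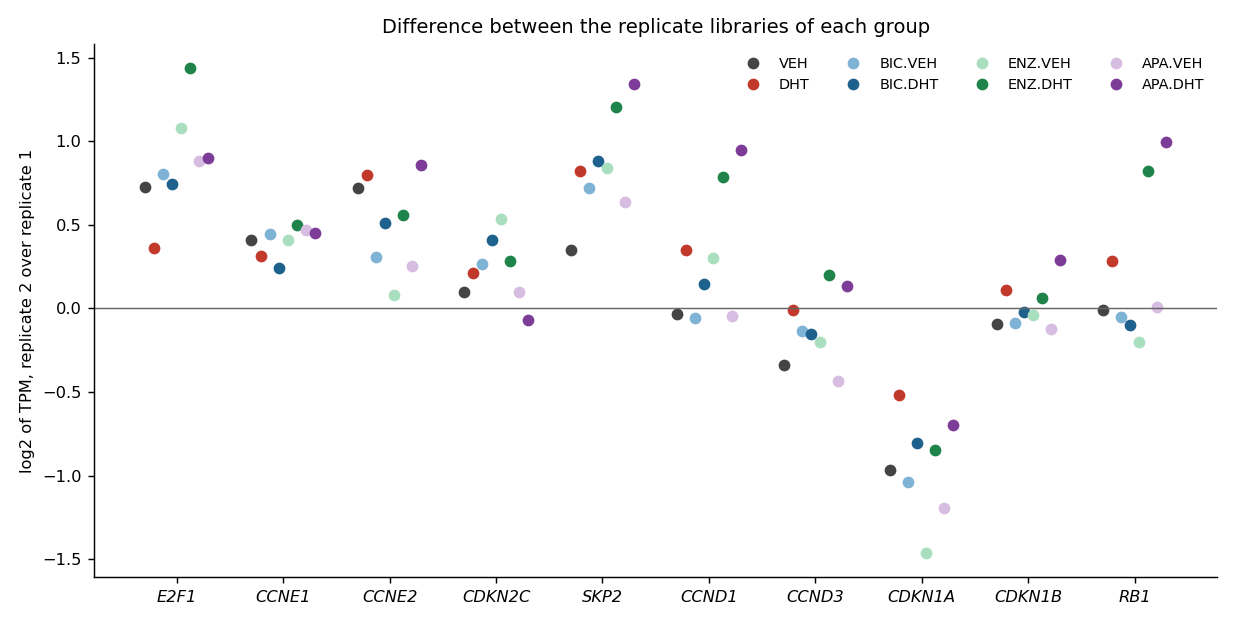
Log2 ratio of TPM in replicate 2 over replicate 1 (vertical axis) for each gene (horizontal axis), 1 point per treatment group. E2F1, CCNE1, CCNE2 and SKP2 lay above 0 and CDKN1A below 0 in all 8 groups, and for CCND1 and RB1 the ENZ.DHT and APA.DHT points stood above the others.

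Since the same replicate number moved together in every pair of groups, each comparison is given in a model without the replicate number and in a model with it as a block. The estimate is the same in both and the standard error (SE) is not. All fold changes are differences of log2(TPM + 1), which understates changes of low values, and a gene was called at a Benjamini-Hochberg adjusted p below 0.05 over all 16636 genes.

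The first comparison asks how the androgen changed these genes in cells without an antagonist. With DHT, E2F1 and the E cyclins stood higher and CDKN1A lower, in both replicates. Without the block 0 of the 10 genes were called, where 10.3% of all genes were. An unadjusted p below 0.05 was found for 2 of the 10 and for 4182 of all 16636 genes. With the block 5 were called, where 27.4% of all genes were: E2F1, CCNE1, CCNE2 and CDKN2C rose and CDKN1A fell. The groups did not overlap for 7 of the 10 genes, against 56.5% of all genes. All 10 moved in the same direction in both replicates, and the share of all genes that did so was not computed. Groups that do not overlap always share a direction, so that share is at least 56.5%.

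E2F1 measured 6.98 and 11.5 TPM in the VEH replicates and 24.7 and 31.7 TPM in the DHT replicates. Both DHT libraries lay above every other library in the series. The means were 9.26 ± 3.22 and 28.2 ± 4.96 TPM (SD, n = 2), a ratio of 3.04. The log2 change was 1.53 (SE 0.50, adjusted p = 0.078) without the block and had an SE of 0.17 with it (adjusted p = 0.00013). Without ENZ.DHT replicate 1 and APA.DHT replicate 1, which enter only through the shared estimate of the spread, it was called without the block too (adjusted p = 0.044).

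The E cyclins rose less. CCNE2 went from 8.54 and 14.1 TPM in VEH to 12.6 and 22.0 TPM in DHT, so the groups overlapped although each replicate rose, by ratios of 1.48 and 1.56. Its log2 change was 0.56 (block SE 0.17, adjusted p = 0.032 with the block and 0.33 without). CCNE1 went from 7.64 and 10.2 to 9.95 and 12.4 TPM, a log2 change of 0.30 (block SE 0.10, adjusted p = 0.042 with the block and 0.49 without). CCNE2 made up 55.5% ± 3.78 of the summed E cyclin TPM in VEH and 59.95% ± 5.68 in DHT (SD, n = 2), a difference within the spread between replicates.

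The CDK inhibitors did not move together. CDKN1A was 632 and 323 TPM in VEH and 269 and 187.5 TPM in DHT, and fell by 1.01 on the log2 scale (adjusted p = 0.0022 with the block, SE 0.18, and 0.32 without). CDKN2C, the CDK4 and CDK6 inhibitor, went the other way, from 9.28 and 9.95 TPM to 12.7 and 14.7 TPM (0.47, adjusted p = 0.022 with the block, SE 0.13, and 0.15 without). CDKN1B was 33.2 and 31.2 TPM in VEH and 26.3 and 28.4 TPM in DHT, a log2 difference of -0.23 (block SE 0.11) that was not called in either model. CDKN1A held 91.2% ± 3.5 of the summed TPM of these 3 inhibitors in VEH and 84.3% ± 4.3 in DHT (SD, n = 2).

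The estimates for the D cyclins differed in sign, and the difference between the genes was not tested. CCND1 was 128 and 125 TPM in VEH and 88.3 and 113 TPM in DHT, and CCND3 was 43.5 and 34.4 TPM in VEH and 47.0 and 46.8 TPM in DHT. Neither pair of groups overlapped, and neither gene was called in either model (log2 differences of -0.34 and 0.27, block SE 0.23 and 0.14). CCND1 made up 74.7% and 78.4% of the summed CCND1 and CCND3 TPM in VEH and 65.3% and 70.7% in DHT. RB1 was 20.9 and 20.8 TPM in VEH and 15.1 and 18.4 TPM in DHT (-0.30, block SE 0.25), and SKP2 was 7.93 and 10.1 TPM in VEH and 8.09 and 14.3 TPM in DHT (0.24, block SE 0.18). Neither was called. Another fit used the block and left out ENZ.DHT replicate 1 and APA.DHT replicate 1, the libraries in which CCND1 and RB1 were lowest. In that fit 8 of the 10 genes were called, against 41.2% of all genes. CCND1 (adjusted p = 0.037), CDKN1B (0.028) and RB1 (0.043) were among them as lower. Over all genes, 4280 were called there as lower and 2572 as higher.

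The size of the smaller differences depends on the scale. The median over all genes was -0.10 for DHT against VEH as deposited and 0.01 after scaling each library by the median ratio to the others. On the scaled values CDKN1B differed by -0.10, RB1 by -0.18 and CCND1 by -0.21, while E2F1 differed by 1.66, CCNE2 by 0.68, CDKN2C by 0.59 and CCND3 by 0.40. No gene of the 10 changed direction. CCND3 was called as higher with the block on this scale (adjusted p = 0.016). CCND1, CDKN1B and RB1 were not called with the block on this scale with all libraries (adjusted p = 0.46, 0.36 and 0.58).

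**Figure D3:**
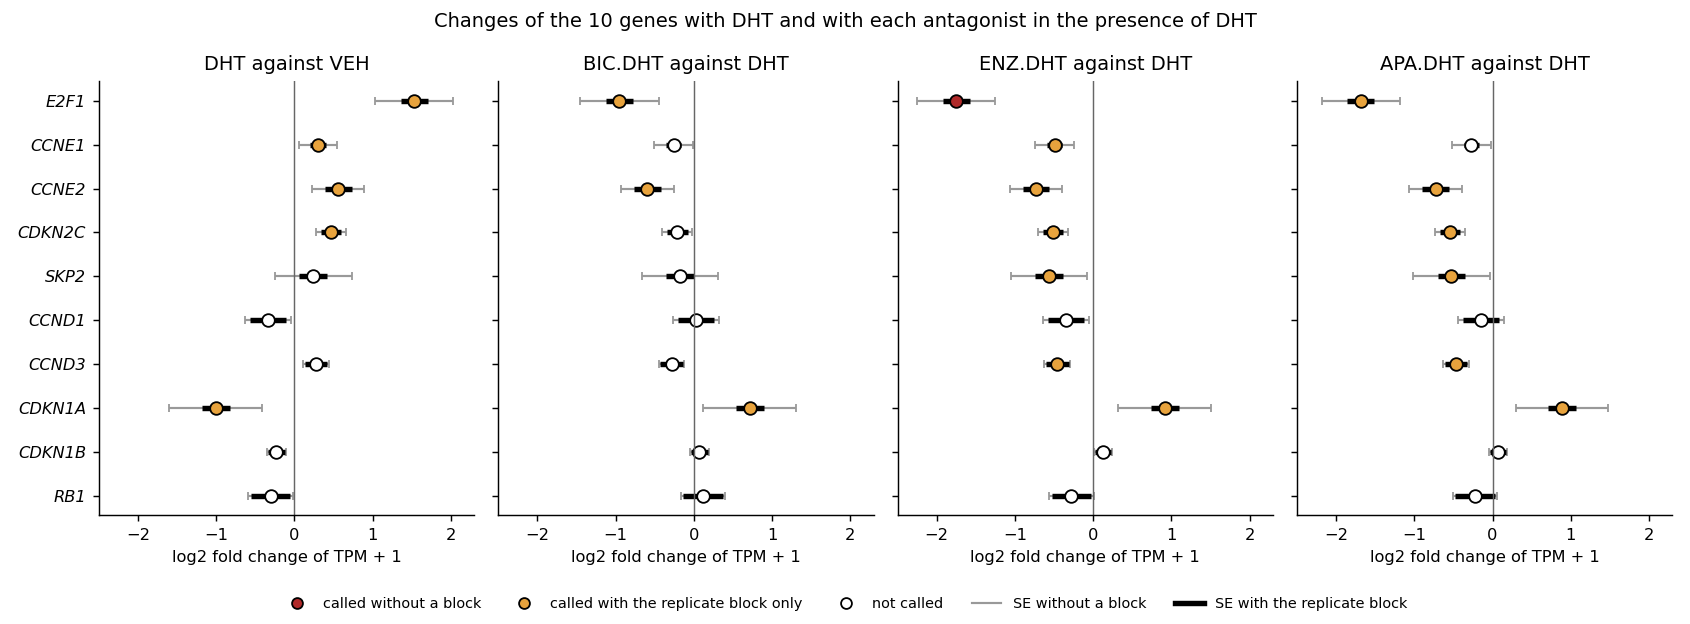
Log2 fold changes of TPM + 1 (horizontal axes) of the 10 genes in 4 comparisons, with the SE of the model without a block as thin bars and with the replicate block as thick bars. E2F1 was higher with DHT and lower with each antagonist, CDKN1A was the reverse, and most calls (orange) were made with the block only.

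The next comparisons ask how each antagonist at 10 µM changed the genes while DHT was present. They share the 2 DHT libraries with each other and with the comparison above, so a DHT library that was high for a gene would lower that gene in all of them. Without the block, 0 of 10 genes were called for BIC.DHT against DHT (3.13% of all genes), 1 for ENZ.DHT (9.65%) and 0 for APA.DHT (8.36%). An unadjusted p below 0.05 was found for 0, 3 and 3 of the 10, and for 2513, 4380 and 4105 of all 16636 genes. With the block the calls were 3, 7 and 6, against 13.3%, 29.2% and 27.3% of all genes. The groups did not overlap for 4, 7 and 4 genes, against 47.0%, 50.9% and 47.9% of all genes.

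E2F1 measured 10.8 and 18.1 TPM in BIC.DHT, 4.55 and 12.3 TPM in ENZ.DHT and 5.83 and 10.9 TPM in APA.DHT, all below both DHT libraries. It fell with each antagonist when the block was used, by 0.95 on the log2 scale with bicalutamide (SE 0.17, adjusted p = 0.0054), 1.75 with enzalutamide (SE 0.17, adjusted p = 6.57e-05) and 1.68 with apalutamide (SE 0.17, adjusted p = 8.54e-05). Without the block only the enzalutamide change was called, at the edge of the threshold (SE 0.50, adjusted p = 0.04996, and from 0.024 to 0.33 over the alternatives without a block). The bicalutamide and apalutamide changes had adjusted p = 0.42 and 0.062. Without replicate 1 of ENZ.DHT the enzalutamide change was -1.12 and was not called (adjusted p = 0.33), and with the block and without replicate 1 of ENZ.DHT and APA.DHT the enzalutamide and apalutamide changes were -1.47 and -1.63 (adjusted p = 0.00050 and 0.00030).

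CDKN1A measured 488 and 279 TPM in BIC.DHT, 568 and 316 TPM in ENZ.DHT and 531 and 328 TPM in APA.DHT. Every one of these libraries lay above the higher DHT library, at 269 TPM. The rises of 0.71, 0.91 and 0.89 were called with the block (SE 0.18, adjusted p = 0.026, 0.0037 and 0.0046) and not without it (adjusted p = 0.65, 0.35 and 0.38).

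CCNE2 was 9.0 and 12.8 TPM in BIC.DHT, 7.95 and 11.7 TPM in ENZ.DHT and 7.16 and 13 TPM in APA.DHT. Only the enzalutamide group lay wholly below DHT, and all 3 changes were called with the block (-0.59, -0.73 and -0.73, SE 0.17, adjusted p = 0.043, 0.0091 and 0.0100). With apalutamide the CCNE2 call was lost when replicate 1 of ENZ.DHT and of APA.DHT was left out (-0.54 with the block, adjusted p = 0.072). CCNE1, at 6.38 and 9.03 TPM in ENZ.DHT, fell by 0.49 with enzalutamide (block SE 0.10, adjusted p = 0.0040). Its differences with bicalutamide (-0.26) and apalutamide (-0.27) were not called (adjusted p = 0.12 and 0.062 with the block). With the block the apalutamide difference was called under median-ratio scaling (-0.30, adjusted p = 0.043) and with the length trend removed (-0.30, adjusted p = 0.026).

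CDKN2C fell by 0.51 with enzalutamide and by 0.54 with apalutamide on the log2 scale (block SE 0.13, adjusted p = 0.014 and 0.012). It measured 8.43 and 10.3 TPM in ENZ.DHT and 9.31 and 8.89 TPM in APA.DHT, near its VEH values, and 10.2 and 13.5 TPM in BIC.DHT, where the difference of -0.21 was not called. CCND3 measured 31.6 and 36.3 TPM in ENZ.DHT and 32.1 and 35.2 TPM in APA.DHT, against 47.0 and 46.8 TPM in DHT. Its changes of -0.46 and -0.47 were called with the block (SE 0.14, adjusted p = 0.034 and 0.032), and its difference of -0.28 with bicalutamide was not (40.4 and 36.3 TPM, adjusted p = 0.23). Both CCND3 calls were lost when replicate 1 of ENZ.DHT and of APA.DHT was left out, at -0.26 and -0.30 with the block (adjusted p = 0.15 and 0.096).

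SKP2 was 4.55 and 10.5 TPM in ENZ.DHT and 4.45 and 11.3 TPM in APA.DHT, and these replicate 1 libraries were the lowest of all 16. The changes of -0.56 and -0.53 were called with the block (SE 0.18, adjusted p = 0.036 and 0.049). Without those libraries the SKP2 differences with the block were -0.36 and -0.26, neither called (adjusted p = 0.11 and 0.24). The same libraries set CCND1 and RB1: CCND1 was 59.6 and 64.8 TPM in replicate 1 and 103 and 125 TPM in replicate 2 of ENZ.DHT and APA.DHT, and RB1 was 10.2 and 9.94 TPM against 18.0 and 19.9 TPM. SKP2, with 7461 bases, has a longer longest transcript than 89.0% of genes, RB1 (4768 bases) than 68.2%, CDKN1B (4335 bases) than 62.2% and CCND1 (4238 bases) than 60.9%. With the length trend removed and the block, SKP2 was called in both comparisons (-0.44 and -0.45, adjusted p = 0.013 for each), and CCND1 and RB1 were not called.

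CDKN1B measured 29.0 and 28.5 TPM in BIC.DHT, 29.3 and 30.6 TPM in ENZ.DHT and 26.0 and 31.8 TPM in APA.DHT. Its differences from DHT were 0.07, 0.13 and 0.07 (block SE 0.11), none called in either model. With the block and the length trend removed it was called as higher with enzalutamide (0.21, adjusted p = 0.039). It was below its group without DHT in each antagonist arm, where BIC.VEH, ENZ.VEH and APA.VEH held 33.7 ± 1.5, 34.4 ± 0.7 and 33.8 ± 2.0 TPM (SD, n = 2). Those differences were not called either. After median-ratio scaling they were -0.15, -0.056 and -0.15 on the log2 scale. The medians over all genes as deposited were -0.063, -0.126 and -0.070 in the same comparisons.

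Without DHT, no change of these genes with an antagonist passed the test. For BIC.VEH, ENZ.VEH and APA.VEH against VEH, 0 of 10 genes were called in either model and 0 had an unadjusted p below 0.05, where 0%, 0% and 0.00601% of all genes were called. Without the block, 194, 139 and 151 of all 16636 genes had an unadjusted p below 0.05. E2F1 was 8.41 and 14.7 TPM in BIC.VEH, 5.14 and 10.9 TPM in ENZ.VEH and 5.57 and 10.3 TPM in APA.VEH. These values overlapped the VEH libraries, with differences of 0.28, -0.23 and -0.22 and 95% intervals, with the block, of -0.10 to 0.66, -0.61 to 0.15 and -0.60 to 0.16. CDKN1A was 574 and 279 TPM in BIC.VEH, 898 and 326 TPM in ENZ.VEH and 726 and 318 TPM in APA.VEH.

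A further question is how much of the DHT response was left in the presence of an antagonist. Comparing each antagonist with DHT to the same antagonist without it (bicalutamide, enzalutamide, apalutamide), 0 of 10 genes were called in either model, where 0%, 0.00601% and 0.00601% of all genes were without the block. None of the 10 had an unadjusted p below 0.05 without the block. With it 1 did, in the enzalutamide arm, where 1588 of all 16636 genes did. E2F1 differed by 0.31, 0.01 and 0.07 (block SE 0.17), with 95% intervals of -0.08 to 0.69, -0.37 to 0.39 and -0.31 to 0.45, all of which lie below the 1.53 seen without an antagonist. CDKN1A differed by -0.12, -0.35 and -0.20 (block SE 0.18).

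The interaction term tests that contrast directly, as the DHT change with an antagonist minus the DHT change without. Without the block, 0 of 10 genes were called for bicalutamide, enzalutamide or apalutamide, where 0.986%, 1.63% and 1.42% of all genes were. None of the 10 had an unadjusted p below 0.05 there, as 1716, 2163 and 2184 of all 16636 genes did. With the block E2F1 alone of the 10 was called for each antagonist, where 6.39%, 9.91% and 10.1% of all genes were. Its interactions were -1.23, -1.52 and -1.47 (SE 0.24, adjusted p = 0.015, 0.0037 and 0.0046). The CDKN1A interactions of 0.89, 0.65 and 0.80 (SE 0.25) were not called (adjusted p = 0.066, 0.14 and 0.071), nor were those of CCNE2 (-0.68, -0.54 and -0.72, SE 0.24, adjusted p = 0.13, 0.19 and 0.087).

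Enzalutamide and apalutamide share a thiohydantoin ring flanked by aromatic rings, which bicalutamide lacks, and all 3 were given at the same dose and for the same time. Over the 3 pairs compared in the presence of DHT, 0 of 10 genes were called in either model. The shares of all genes called without the block were 0.00601% for ENZ.DHT against BIC.DHT, 0% for APA.DHT against BIC.DHT and 0.00601% for APA.DHT against ENZ.DHT. Without the block 0 of the 10 genes had an unadjusted p below 0.05. With it 3, 2 and 1 did, and 2062, 1643 and 232 of all 16636 genes did. E2F1 came closest: it was lower than with bicalutamide by 0.80 on the log2 scale with enzalutamide (95% interval with the block -1.18 to -0.42, adjusted p = 0.11) and by 0.73 with apalutamide (-1.12 to -0.35, adjusted p = 0.18). Between apalutamide and enzalutamide it differed by 0.07 (95% interval -0.31 to 0.45, adjusted p of 1), which does not show that they act alike. CDKN1A differed between antagonists by 0.20, 0.18 and -0.02 in the same order (block SE 0.18).

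**Figure D4:**
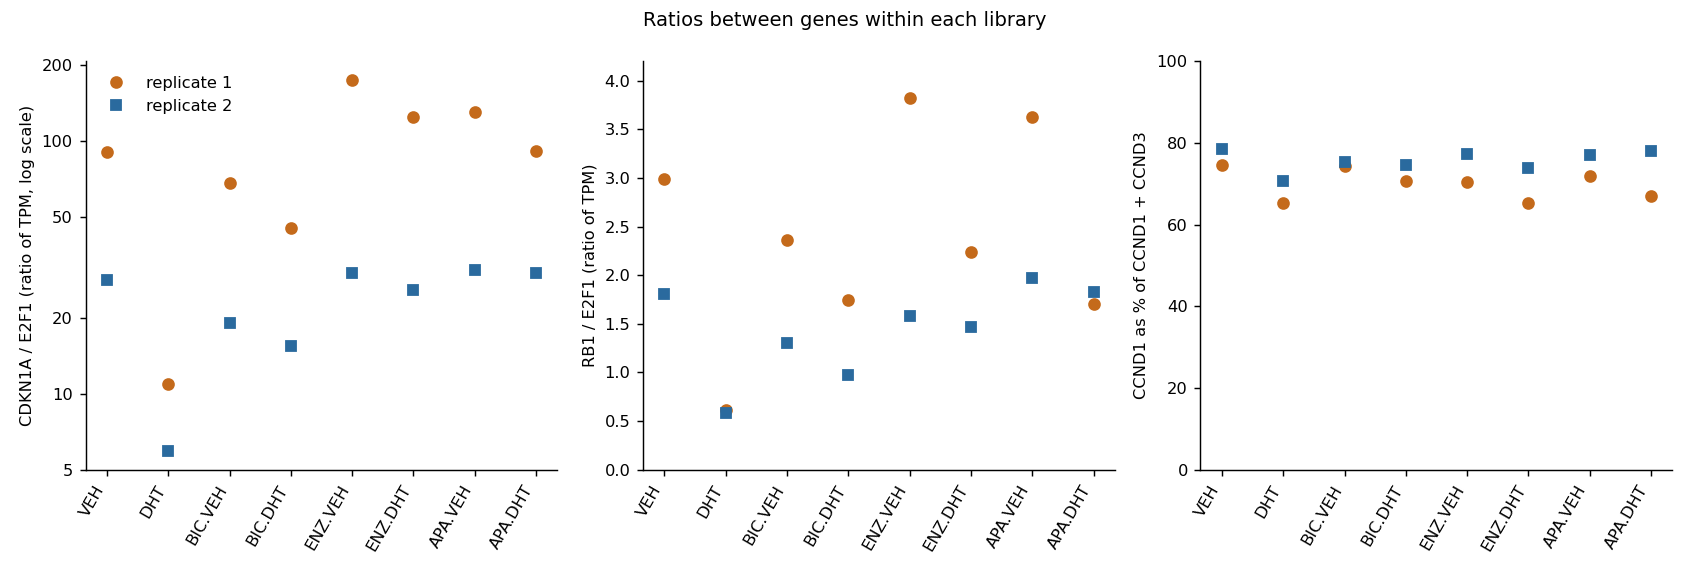
Ratios of TPM between genes within each library, by treatment group: CDKN1A over E2F1 (log axis), RB1 over E2F1, and CCND1 as a percentage of CCND1 plus CCND3, with replicate 1 as circles and replicate 2 as squares. Both DHT libraries held the lowest ratios to E2F1, at 10.9 and 5.92 for CDKN1A and 0.61 and 0.58 for RB1.

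Ratios within a library do not depend on how libraries are scaled against each other. CDKN1A over E2F1 was 90.6 and 28.04 in VEH, 10.9 and 5.92 in DHT, 45.2 and 15.5 in BIC.DHT, 125 and 25.7 in ENZ.DHT, and 91.0 and 30.1 in APA.DHT. The DHT ratios were the lowest of the series, and replicate 1 exceeded replicate 2 in every group. RB1 over E2F1 was 2.99 and 1.80 in VEH and 0.61 and 0.58 in DHT. RB1 over E2F1 was 1.75 and 0.97 in BIC.DHT, 2.24 and 1.46 in ENZ.DHT and 1.70 and 1.82 in APA.DHT, all above both DHT ratios. Both BIC.DHT ratios lay below both VEH ratios. Replicate 1 of ENZ.DHT and APA.DHT also had low RB1. CDKN1B over SKP2, the ligase receptor that targets its protein, was 4.19 and 3.08 in VEH and 3.25 and 1.99 in DHT, so these groups overlapped.

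The other genes of the G1/S pathway were read from fixed lists, of which the members above are part. Of the 13 cyclin and CDK genes, 11 passed the filter, 0 were called with DHT without the block (10.3% of all genes) and 5 rose with it (27.4% of all genes), namely the E cyclins, CDK2 (1.05), the CDK2 phosphatase CDC25A (1.41) and cyclin A2 (CCNA2, 1.38), with adjusted p-values from 5.56e-05 to 0.042. Their median log2 change was 0.27, beside -0.10 over all genes. CDK4 differed by 0.16 and was not called. Among the 10 E2F and DP factors, E2F1, E2F2, E2F7 and E2F8 rose with the block (1.53, 0.89, 0.97 and 1.27), against the same 27.4%, and 0 were called without it.

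The pocket protein RBL2 (p130), which holds E2F complexes in resting cells, was called in the model without the block. It was 136 and 116 TPM in VEH and 73.7 and 61.5 TPM in DHT, and fell by 0.89 on the log2 scale (SE 0.22, adjusted p = 0.027). With enzalutamide, apalutamide or bicalutamide and DHT it was higher than with DHT alone by 0.62, 0.72 and 0.66, called with the block only (adjusted p = 0.020, 0.0100 and 0.028). RB1 and the third pocket protein, RBL1, were not called with DHT, and the difference between the genes was not tested.

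All 30 E2F target genes had higher estimates with DHT (median 1.04). Of them 0 were called without the block and 28 with it, against 10.3% and 27.4% of all genes. All 30 had lower estimates with bicalutamide (median -0.60), enzalutamide (-1.32) and apalutamide (-1.13) than with DHT alone. Without the block 0, 1 and 1 were called, against 3.13%, 9.65% and 8.36% of all genes. With it 15, 30 and 30 were called, against 13.3%, 29.2% and 27.3% of all genes. The call without the block was CDT1, a replication licensing factor, at 14.6 and 22.5 TPM in DHT, 9.75 and 9.57 TPM in ENZ.DHT and 9.60 and 8.94 TPM in APA.DHT (-0.84 and -0.90, adjusted p = 0.047 and 0.040). Summed TPM of the 30 targets was 478 and 805 in VEH, 1016 and 1699 in DHT, 664 and 1088 in BIC.DHT, 344 and 793 in ENZ.DHT and 387 and 797 in APA.DHT. Replicate 2 of VEH thus lay between replicate 1 of BIC.DHT and replicate 1 of DHT, and the VEH and DHT groups did not overlap.

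**Figure D5:**
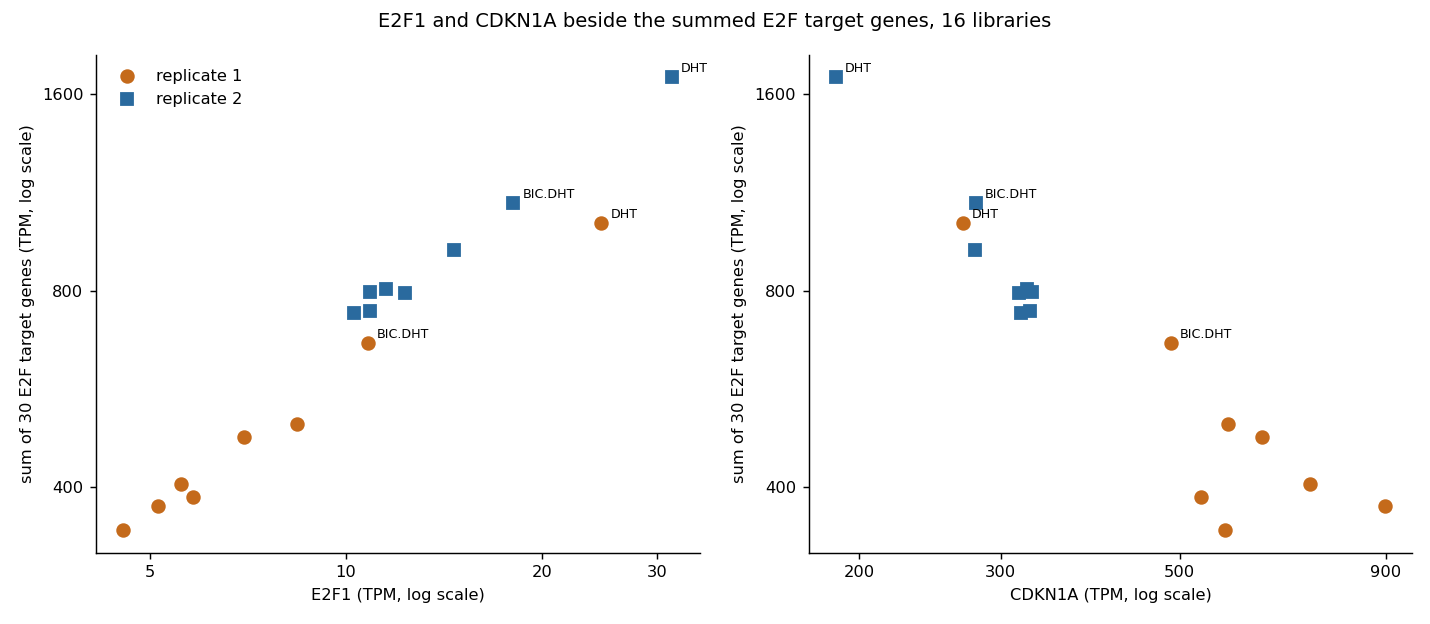
Summed TPM of 30 E2F target genes (vertical axes, log scale) against TPM of E2F1 (left) and CDKN1A (right, both horizontal axes on a log scale) in the 16 libraries, with replicate 1 as circles and replicate 2 as squares, and the DHT and BIC.DHT libraries named. The sum ran from 344 TPM (ENZ.DHT, replicate 1) to 1699 TPM (DHT, replicate 2), and tended to be higher where E2F1 was higher and CDKN1A lower.

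CDKN1A is also a p53 target, so other targets of p53 were set beside it. Of 18 genes, 3 fell with DHT without the block, where 10.3% of all genes were called: TP53I3, a quinone oxidoreductase (23.3 and 13.6 TPM in VEH, 6.01 and 3.93 TPM in DHT, -1.68, SE 0.36, adjusted p = 0.014), BBC3, which encodes the death-promoting protein PUMA (-0.78, adjusted p = 0.023), and BTG2, an antiproliferative gene (-0.87, adjusted p = 0.036). The median of the 18 was -0.43, beside -0.10 over all genes. With the block, where 27.4% of all genes were called, 7 fell and 1 rose. The gene that rose was GDF15, a secreted stress-response factor (0.85, SE 0.18, adjusted p = 0.0051). TP53I3 was also higher with each antagonist and DHT than with DHT alone, by 1.26, 1.58 and 1.68 in the order bicalutamide, enzalutamide and apalutamide, called without the block for the last pair (adjusted p = 0.021 and 0.016). Of the 18, 0, 3 and 2 were called as higher in that order without the block, against 3.13%, 9.65% and 8.36% of all genes called. TP53I3 shared with CDKN1A the lower level in replicate 2 (-0.53, adjusted p = 0.00075), while BTG2 was higher there (0.28, adjusted p = 0.016). Most of the list went the other way from CDKN1A: 13 of the 18 estimates were higher in replicate 2. Of the 18, 3 were called as higher there and 4 as lower, against 40.2% of all genes called.

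The genes whose log2(TPM + 1) followed each member most closely were sought by Pearson's r over the 16 libraries among 11054 genes with a mean of at least 5 TPM. The libraries share treatments and replicate numbers, so r is a description only. For E2F1 they were TCF19 (0.992) and FEN1 (0.989), and FEN1, a flap endonuclease of DNA replication, is among the 30 targets. For CDKN1A they were SYNM (0.995), an intermediate filament gene, and IFITM3 (0.983). SKP2 was closest to BBS10 (0.990) and POLR1B (0.981), RB1 to CELF1 (0.981) and RNF216 (0.976), and CCND1 to PIK3C2B and NFIX (both 0.965). For CCNE1 they were CCT8 (0.970) and NUP35 (0.963), for CCNE2 EXTL2 (0.965) and UTP4 (0.964), and for CCND3 AGFG2 (0.968) and BAG3 (0.968). CDKN2C was closest to RFC4 (0.928), another of the replication genes, and PSMB5 (0.921), and CDKN1B to NCOA2 (0.921) and DNAJB1 (0.919), the lowest of the best matches.

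By position in the RefSeq annotation of GRCh38.p14, CCND1 lies on chromosome 11 (69641156 to 69654474), CCNE1 on 19 (29811991 to 29824312), CDKN1B on 12 (12717368 to 12722369), CDKN2C on 1 (50960745 to 50974634) and E2F1 on 20 (33675477 to 33686385), with no annotated gene overlapping. CCND3 on chromosome 6 (41934933 to 42050035), CCNE2 on 8 (94880224 to 94896693), CDKN1A on 6 (36676463 to 36687332), RB1 on 13 (48303751 to 48481890) and SKP2 on 5 (36152111 to 36193530) overlap 2, 3, 1, 4 and 2 other annotated genes. The libraries were strand-specific, but whether the quantification used strand was not given in the sources used here, so the values of these 5 genes may hold reads of a neighbour.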

How the data were processed

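The authors sequenced stranded, polyadenylated RNA as 125 bp read pairs, with about 40 M pairs per library per the labels. Their processing notes name FastQC 0.11.9, Trim Galore 0.6.5, STAR 2.7.2b, RSEM 1.3.3 and GRCh38. The table deposited holds TPM values by gene symbol, each library in a column of its own. TPM keeps no read depth, so no counting interval is given, and precision rests on the spread between 2 replicates. A rise of abundant transcripts lowers all other TPM values.

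Groups and replicate numbers came from the labels. Genes with at least 1 TPM in at least 2 libraries were tested as log2(TPM + 1) in limma 3.58.1 (R 4.3.3, trend option) with 8 group means over all 16 libraries, and Benjamini-Hochberg adjustment within each contrast. The test without the block was checked on simulated data, which held no shift shared by a replicate number. The model with the block was not checked in this way. Replicate 2 minus replicate 1 correlated across genes in all 28 pairs of groups (r from 0.204 to 0.635, median 0.427), above the minimum of 0.1 set for pairing, so values with the replicate number as a block are given too. Scripts otherwise ran in Python 3.11.15. No per-sample column was left unmapped (0 columns).

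The members and the gene lists, written by hand, were chosen with earlier results of these data known. Named list genes were at most the 3 of each list with the lowest adjusted p among those called without the block with DHT or with an antagonist and DHT, plus KLK2, KLK3, TMPRSS2 and FKBP5 as a check of treatment. Other list genes (cyclins, kinases, E2F factors, RBL1, GDF15 and markers) were named after their values were seen, to account for a count or a level. For likeness, the 2 closest genes of each member were named. Of the marker lists, called with DHT without the block were 4 of 6 luminal genes (KRT18, FOLH1, KLK3 and TMPRSS2), KRT14 of 2 basal genes tested, COL1A1 of 1 stromal gene tested (11.4 to 32.6 TPM) and 0 of 1 neuroendocrine gene tested. A further marker list is not reported here. Of the 10 genes of SKP2-related and cyclin D ubiquitin ligases, 0 were called with DHT without the block, against 10.3% of all genes. Of 7 CDK inhibitors 0 were called there. With the block 1 ligase gene and CDKN2C were called as higher with DHT and CDKN1A as lower, against 27.4% of all genes. Alternatives were a pseudocount of 0.1, no filter on low values, median-ratio scaling, no trend, only the groups compared, the block and each library left out. Leaving out replicate 1 of both ENZ.DHT and APA.DHT, removing a length trend, and joining these or the scaling with the block were added after seeing the data. Transcript lengths came from an annotation lifted to GRCh37.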

Additional observations from a re-analysis of the deposited data

Results flagged for a closer look

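The change of E2F1 with DHT differed between cells with and without each antagonist, by the interaction term with the replicate block. It was -1.23 for bicalutamide, -1.52 for enzalutamide and -1.47 for apalutamide on the log2 scale, lower with the antagonist in 2 of 2 replicates each. Without the block the interactions were not called, with a lowest adjusted p over the 10 genes of 0.64, 0.40 and 0.41 (limma).

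Other genes moved with DHT in one direction in both replicates without an antagonist and in the opposite direction in both replicates with one. CCND3, higher with DHT alone, differed by -0.090 with bicalutamide and by -0.22 with enzalutamide. CCNE2 differed by -0.12 with bicalutamide, CCNE1 by -0.018 and CDKN2C by -0.10 with apalutamide, and SKP2 by -0.17 with enzalutamide, each also higher with DHT alone. The opposite direction itself was not tested. Over all genes the median change with DHT was -0.063 with bicalutamide, -0.126 with enzalutamide and -0.070 with apalutamide. After median-ratio scaling CCND3 differed by -0.021 and -0.082, CCNE2 by -0.051, CDKN2C by -0.028 and SKP2 by -0.050. On that scale CCNE1 differed by 0.051 with apalutamide, so it no longer went the opposite way. The interaction terms, which compare the sizes of the changes, were not called for these genes in either model.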

How the results depend on the processing

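With the replicate block the genes called of 10 went from 0 to 5 for DHT against VEH, from 0 to 3 for BIC.DHT, from 1 to 7 for ENZ.DHT and from 0 to 6 for APA.DHT against DHT, and from 0 to 1 for each interaction, and no other comparison changed. The block with median-ratio scaling gave 6, 3, 7 and 7 calls in the same order (30.4%, 16.6%, 33.6% and 31.9% of all genes), with the length trend removed 7, 3, 8 and 7 (37.3%, 22.7%, 40.5% and 39% of genes with a length), and without replicate 1 of ENZ.DHT and APA.DHT 8, 3, 5 and 3 (41.2%, 25.6%, 27.7% and 29.5%). Without the block, leaving out those libraries gave 1 call for DHT against VEH (15.8% of all genes). For ENZ.DHT, then left with 1 library, the E2F1 change was -1.12. With all libraries, APA.DHT gave 1 call with the length trend removed (12.8% of genes with a length). Under median-ratio scaling alone it also gave 1, and the share of all genes there is not given here. The single ENZ.DHT call, E2F1, was lost (0) with a pseudocount of 0.1, no filter, no trend or only the groups compared. Leaving out each library in turn gave 0 to 1. The causes were not tested.

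Leaving out 1 library turned the direction of log2 differences that were not called without the block: SKP2 with DHT ran from -0.13 to 0.62, CCND1, RB1 and SKP2 with bicalutamide from -0.14 to 0.20, -0.013 to 0.25 and -0.57 to 0.22, CCND1 and RB1 with enzalutamide from -0.73 to 0.041 and -0.66 to 0.10, and CCND1, CDKN1B, RB1 and SKP2 with apalutamide from -0.62 to 0.32, -0.069 to 0.21, -0.69 to 0.24 and -1.11 to 0.062. An arm left with 1 library is assumed to vary like the other groups. Depth is unknown from TPM, and 2 replicates limit what can be called.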
